A study of Mus musculus with 6 samples.

Results

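Expression of the nuclear-encoded genes of oxidative phosphorylation (OXPHOS) was compared between injured mouse retinas that received stem cell factor (SCF) and those that received buffer. Members were the genes whose symbol begins with Nduf followed by a, b, c, s or v, begins with Uqcr, with Cox4 to Cox8 or with Atp5, or is Sdha, Sdhb, Sdhc or Sdhd, and symbols of pseudogenes holding -ps were left out. This rule took 86 of the 31867 genes with an Ensembl transcript in the files, namely 34 subunits of complex I, 7 assembly factors of complex I, 4 subunits of complex II, 8 of complex III, 16 of complex IV and 15 of complex V. Cox7a2l, a supercomplex factor, and Ndufa4l2, a paralog of Ndufa4, made up the other 2. RNA-seq was available for 3 libraries of the NMDA + PBS group and 3 of the NMDA + SCF group. All retinas came from wild-type C57BL/6 mice (C57BL/6J in the study's methods), labelled as postnatal week 5, and had an intravitreal injection of NMDA, a glutamate receptor agonist that kills retinal ganglion cells. Recombinant SCF, the ligand of the receptor c-kit, or, by the study's methods, PBS followed 2 days later, and retinas were taken 1 week after treatment, so both groups carried the same injury and no uninjured retina entered the comparison. The treatment text of the labels names SCF for all 6 samples, and the groups were taken from the sample titles. The number of mice behind a library is not given in the sources used here, and the p-values below measure only the spread between these libraries.

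The OXPHOS system lies in the inner mitochondrial membrane. Complex I takes electrons from NADH and complex II from succinate, complex III passes them from ubiquinol to cytochrome c, and complex IV reduces oxygen. The resulting proton gradient drives complex V, the ATP synthase. Most subunits are encoded in the nucleus, while a few core subunits are encoded in mitochondrial DNA, and photoreceptors, the most abundant cells of the mouse retina, are among the most oxygen-consuming cells of the body.

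Values are given in FPKM, fragments per kilobase of transcript relative to all fragments counted in a library, summed for each gene over its Ensembl transcripts that all 6 files list. Sets of 3 values follow the order of the replicate numbers. Of the 86 members, 84 had such a transcript and were tested. Ndufs8, an iron-sulfur subunit of complex I, and the assembly factor Ndufaf1 had none. The main isoforms of many members were thinly represented. A principal coding transcript, the isoform that GENCODE marks by APPRIS as the main protein-coding one, was listed in all 6 files for 55 of the 86 members (64%), against 57.1% of the 17222 coding genes with a row. It averaged under 1 FPKM in 18 of these members, 1 to 10 FPKM in 17, 10 to 50 FPKM in 8 and 50 FPKM or more in 12. The highest transcript was protein-coding in 43 of the 84 members, a retained-intron transcript in 27, a processed transcript in 13 and a nonsense-mediated decay transcript in 1. Mean levels ran from 0.118 FPKM for Cox4i2 to 2050 FPKM for Cox8a, with a median of 13.0 FPKM. A sum is the level of the listed transcripts and can leave out part of a gene. Low sums were also found where the principal transcript was listed in all 6 files, as in Cox4i2 and Atp5a1. Atp5a1, the alpha subunit of the ATP synthase and thus a gene of every respiring cell, summed to between 2.10 and 4.30 FPKM. Its principal transcript averaged 0.368 FPKM, and the reason for this low value was not tested.

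The files also used 2 transcript lists. NMDA + PBS replicate 1 and the 3 NMDA + SCF libraries shared list A, and NMDA + PBS replicates 2 and 3 shared list B. The first principal component of all genes took 53.3% of the variance, and on it the libraries stood apart by list and not by group. Sdha, the flavoprotein of complex II, had its principal transcript in list A only, at 269 FPKM in NMDA + PBS replicate 1 and at 281, 259 and 285 FPKM in the NMDA + SCF libraries. The principal transcript of Ndufv3, a small subunit at the NADH-binding end of complex I, was also in list A only, at 136 FPKM in NMDA + PBS replicate 1 and 124, 109 and 122 FPKM in the NMDA + SCF libraries. In both genes NMDA + PBS replicate 1 lay within or above the range of the NMDA + SCF libraries. That of Ndufs8 was in list B only, at 9.40 and 7.48 FPKM in the 2 libraries with that list. In all, 6 members had their principal transcripts in list A only, 6 in list B only and 19 in neither.

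Across all 25202 genes tested, limma called no gene (0%), where a call needed a 2-fold difference and an adjusted p no higher than 0.001, and none reached an adjusted p of 0.05, while 2324 genes had an unadjusted p of at most 0.05. The smallest adjusted p among the members was 0.536. No member is therefore described as changed. At an unadjusted p of at most 0.05, limma counted 8 of the 84 members (9.52%), against 9.22% of all genes tested, so the share of members was close to the background. Of the 8, 5 were higher in NMDA + SCF (background 4.33%) and 3 were lower (background 4.9%). The same threshold counted 9 members with voom on fragments recovered from the FPKM values, and voom also called none, with 2595 of all genes at that threshold. The 3 values of each group did not overlap for 14 members, 11 higher and 3 lower in NMDA + SCF, against 14.1% of all genes in either direction, 7.63% higher and 6.45% lower. These 14 include Uqcr11 and Cox7b2, with at most 2 and 3 fragments in any library. In all, 7 of the 84 members were tested on at most 3 fragments in every library. Of the members, 47 averaged 10 FPKM or more, and among the 4508 genes that did so, 931 were higher without overlap and 189 lower. In bulk RNA, fewer cells of a type and less RNA per cell cannot be told apart.

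The median log2 fold change of the 84 members was 0.20, against -0.01 over all genes tested and 0.22 over the genes at 10 FPKM or more. By complex the medians were 0.30 for complex I, 0.21 for its assembly factors, 0.39 for complex II, 0.16 for complex III, 0.05 for complex IV and 0.03 for complex V. Against NMDA + PBS replicate 1 alone, the library that shared the transcript list of the NMDA + SCF group, the median of the members was 0.03, and against NMDA + PBS replicates 2 and 3 it was 0.22. The signs of several medians depended on the setting. With values centred per library on genes of the same transcript length, an alternative chosen after the data were seen, the median was -0.018 for the members, -0.023 for complex III, -0.11 for complex IV and -0.27 for complex V, beside -0.23 for all genes. With upper quartile scaling the medians of complexes IV and V were -0.065 and -0.079, with median-of-ratios scaling -0.019 and -0.036, with voom -0.074 and -0.0040, and without the mitochondrially encoded genes -0.081 and -0.096. In the same order of settings, the median over all genes was -0.053, -0.036, -0.059 and -0.065. The median of the assembly factors was -0.37 with a term for the transcript list and -0.33 with all listed transcripts. In the latter setting a transcript that a list lacks adds nothing in its libraries, so that median also holds the difference between the lists. The fit with the list term gives the same fold changes as the comparison with NMDA + PBS replicate 1 alone.

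**Figure D1:**
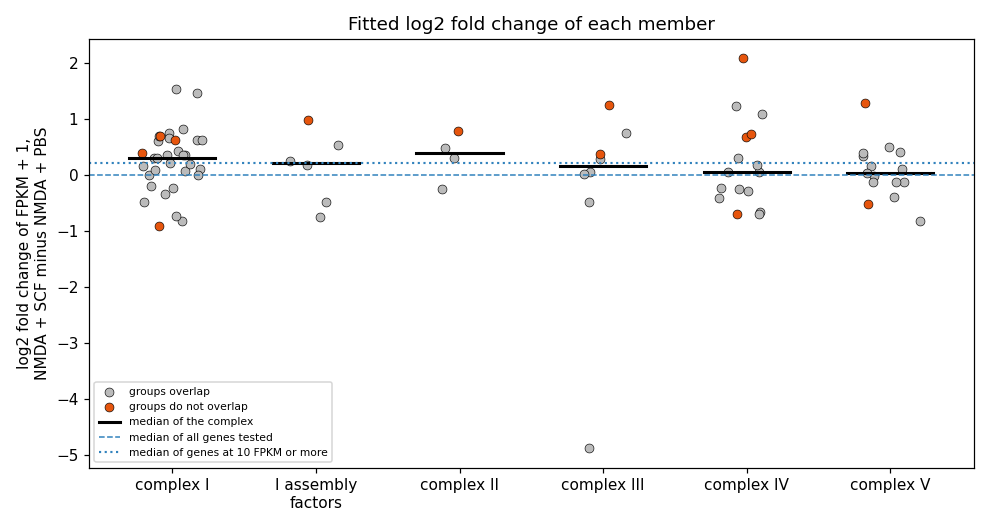
Fitted log2 fold change of FPKM + 1 (NMDA + SCF minus NMDA + PBS, y axis) of each member, by complex (x axis). Bars are the medians of the complexes, orange points are members whose groups did not overlap, and dashed and dotted lines are the medians of all genes tested and of those at 10 FPKM or more. Medians of the complexes lay between 0.03 and 0.39, and Uqcrfs1 stood apart at -4.88.

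The 12 members with a principal coding transcript at 50 FPKM or more held most of the summed signal, and their levels depended on the NMDA + PBS library. Ndufa1, Ndufa8, Ndufb3, Ndufb4 and Ndufb9 are named among them after their values were seen. Cox8a encodes the ubiquitous isoform of a small membrane subunit of complex IV and was the highest member. It stood at 2772.5, 1407 and 345 FPKM in the NMDA + PBS libraries and at 2540.5, 2506 and 2731 FPKM in the NMDA + SCF libraries. Its transcript of 550 bases was thus as high in NMDA + PBS replicate 1 as in the NMDA + SCF libraries, intermediate in replicate 2 and lowest in replicate 3. The groups overlapped, and the log2 fold change of 1.23 (SE 0.70, adjusted p = 0.578) did not pass the test.

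Ndufa1, a small subunit in the membrane arm of complex I, gave 627, 277 and 41.9 FPKM in the NMDA + PBS libraries and 506, 589 and 599 FPKM in the NMDA + SCF libraries (log2 fold change 1.53, SE 0.87, adjusted p = 0.579). Ndufa2, another accessory subunit of complex I and its highest member here, gave 773, 329 and 69.3 FPKM against 727, 708 and 720 FPKM (log2 fold change 1.46, SE 0.77, adjusted p = 0.560). For both genes NMDA + PBS replicate 1 lay above every NMDA + SCF library and replicate 3 was the lowest of the 6.

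Ndufa8 gave 390, 243 and 134 FPKM in the NMDA + PBS libraries and 348, 417 and 412 FPKM in the NMDA + SCF libraries. Ndufb3 gave 472, 246 and 95.6 FPKM against 385, 409 and 396 FPKM, and Ndufb9 gave 351, 187 and 110 FPKM against 298, 313 and 332 FPKM. In these accessory subunits of complex I, NMDA + PBS replicate 1 lay within or above the range of the NMDA + SCF libraries, replicate 2 below it and replicate 3 lowest, with log2 fold changes of 0.74 (SE 0.37), 0.82 (SE 0.52) and 0.70 (SE 0.39) and overlapping groups. Ndufb4, also of the membrane arm, gave 185, 89.5 and 46.4 FPKM against 105, 122 and 145 FPKM, and its log2 fold change was 0.42 (SE 0.46). Uqcrb, a subunit of complex III, gave 244, 145 and 85.6 FPKM against 236, 204 and 305 FPKM (log2 fold change 0.75, SE 0.38). Sdhd, a membrane anchor of complex II, gave 282, 185 and 130 FPKM against 263, 262 and 268 FPKM (log2 fold change 0.48, SE 0.28) and NMDA + PBS replicate 1 lay above the range of the NMDA + SCF libraries.

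Cox8b, the isoform of the same complex IV subunit known from heart and skeletal muscle, stood at 49.0, 34.2 and 3.13 FPKM in the NMDA + PBS libraries and at 51.1, 72.6 and 142 FPKM in the NMDA + SCF libraries. Its groups did not overlap, with the nearest values at 49.0 and 51.1 FPKM, and the log2 fold change of 2.08 (SE 0.90) had an adjusted p of 0.536. Of 8 skeletal muscle markers, 4 were at 0 or not listed (Tnnt3, Tnnc2, Myh1 and Myh4), and their sum lay between 10.2 and 19.0 FPKM in all 6 libraries.

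Atp5b and Uqcrfs1 did not follow this order. Atp5b, the catalytic beta subunit of the ATP synthase, gave 246, 229 and 609 FPKM in the NMDA + PBS libraries and 171, 150 and 244 FPKM in the NMDA + SCF libraries (log2 fold change -0.82, SE 0.40, adjusted p = 0.545). Here NMDA + PBS replicate 3 was the highest of the 6 libraries. Uqcrfs1, the Rieske iron-sulfur protein of complex III, gave 0.431, 260 and 186 FPKM in the NMDA + PBS libraries and 0.214, 0 and 1.27 FPKM in the NMDA + SCF libraries. Its level separated the libraries by transcript list, with 1407 and 1126 counted fragments in the list B libraries and at most 6 in each of the list A libraries. The fitted log2 fold change of Uqcrfs1 was -4.88 (SE 1.83, adjusted p = 0.536).

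**Figure D2:**
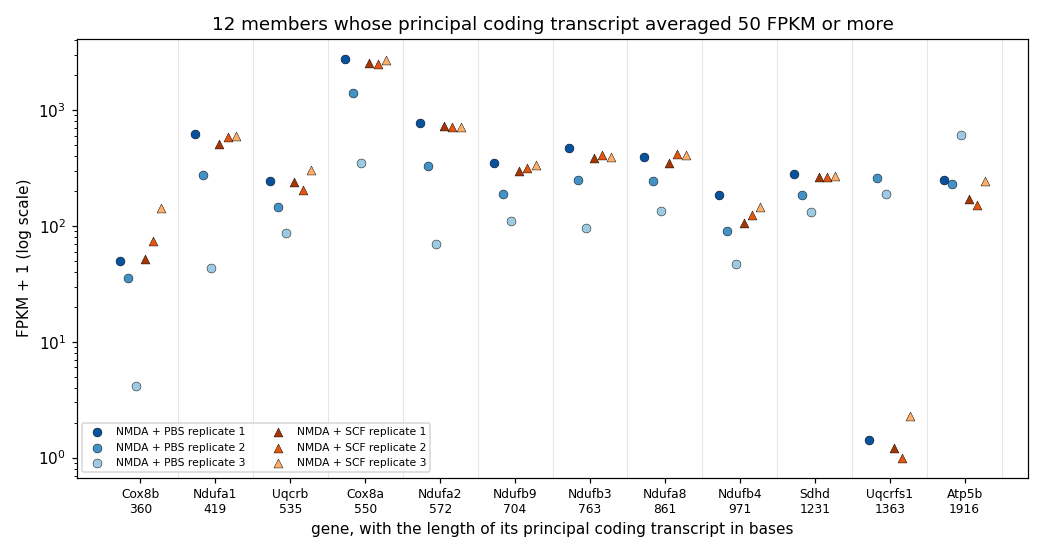
FPKM + 1 (log axis) in each of the 6 libraries for the 12 members whose principal coding transcript averaged 50 FPKM or more, ordered by the length of that transcript. In 10 of the 12, NMDA + PBS replicates 2 and 3 (lighter blue circles) lie below the other 4 libraries, while Atp5b and Uqcrfs1 do not show this.

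The sequences before the start sites of some of these genes are shown because 10 of the 12 members with high principal transcripts shared an order of the libraries, beside Atp5b, which did not, and because OXPHOS promoters are known for sites of the factors NRF-1 and GABP, and some for YY1. Uqcrc1 is shown too but is not among the 12, with its principal transcript at a mean of 15.0 FPKM. The sequences are the 250 bases before the RefSeq start (GRCm38.p6), without bases in an exon of GENCODE M21, and capitals mark a motif. Only Ndufb4 among these 5 holds one, an NRF-1 motif that begins 191 bases before the start.
Cox8a, chr19:7217617-7217866, minus strand: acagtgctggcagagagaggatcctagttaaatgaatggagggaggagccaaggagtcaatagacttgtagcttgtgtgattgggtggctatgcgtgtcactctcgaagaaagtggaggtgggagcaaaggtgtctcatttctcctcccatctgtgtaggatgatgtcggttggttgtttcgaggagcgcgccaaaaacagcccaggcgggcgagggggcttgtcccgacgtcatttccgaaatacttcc
Cox8b, chr7:140900447-140900696, minus strand: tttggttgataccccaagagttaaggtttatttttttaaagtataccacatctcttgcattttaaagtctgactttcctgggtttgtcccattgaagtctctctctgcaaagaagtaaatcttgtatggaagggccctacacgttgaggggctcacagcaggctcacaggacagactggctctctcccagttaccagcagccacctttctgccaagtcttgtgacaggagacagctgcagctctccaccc
Ndufb4, chr16:37654454-37654618, minus strand: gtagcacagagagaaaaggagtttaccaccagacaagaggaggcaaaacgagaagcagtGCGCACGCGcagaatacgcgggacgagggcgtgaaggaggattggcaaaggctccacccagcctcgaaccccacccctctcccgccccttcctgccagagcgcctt
Uqcrc1, chr9:108936398-108936632, plus strand: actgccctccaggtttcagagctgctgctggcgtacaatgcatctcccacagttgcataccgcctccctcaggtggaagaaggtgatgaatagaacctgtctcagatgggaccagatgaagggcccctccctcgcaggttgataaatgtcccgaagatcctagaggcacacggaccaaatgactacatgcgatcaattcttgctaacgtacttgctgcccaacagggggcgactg
Atp5b, chr10:128083057-128083272, plus strand: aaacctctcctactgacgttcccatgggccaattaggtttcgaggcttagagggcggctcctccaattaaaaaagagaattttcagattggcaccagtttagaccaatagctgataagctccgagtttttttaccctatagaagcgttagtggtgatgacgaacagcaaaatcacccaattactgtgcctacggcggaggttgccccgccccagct

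The motifs searched on both strands were GCGCANGCG for NRF-1, CCGGAAG for GABP and GCCATNTT for YY1. RefSeq promoters matched 70 of the 86 members by symbol. An NRF-1 motif was found for 14 of the 70 members (20%), against 5.86% of the 27025 genes with a promoter and 5.16% of the 32851 promoters. A GABP motif was found for 13 members (18.6%), against 7.83% of genes and 6.91% of promoters, and a YY1 motif for 6 members (8.57%), against 4.49% of genes and 3.91% of promoters. The median GC content was 56% for the promoters of the members and 52.4% for all promoters, and the shares were not matched for it. Among the members with high principal transcripts, Ndufa8, Ndufb4 and Sdhd held the NRF-1 motif and Sdhd also held the GABP motif, while Cox8a, Cox8b, Ndufa1, Ndufb3, Atp5b and Uqcrfs1 held none of the 3. Ndufa2, Ndufb9 and Uqcrb had no promoter matched by symbol. A match of letters is a description of the sequence and was not measured as binding here.

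The order of the libraries went with transcript length, in the members as in all genes. Of the 20 principal member transcripts at 10 FPKM or more, 10 were up to 1000 bases long. NMDA + PBS replicate 3 was the lowest library in all 10 of these, and replicate 2 lay below the 3 NMDA + SCF libraries in 9. Replicate 1 lay above all 3 in 6 and below all 3 in 2. Over all 2434 principal coding transcripts at 10 FPKM or more, the median difference of NMDA + PBS replicate 3 from the mean of the NMDA + SCF libraries on the log2(FPKM + 1) scale was -1.64 for the 36 transcripts up to 600 bases, -1.41 for the 114 of 600 to 1000 bases and 0.06 for the 455 over 5000 bases. For NMDA + PBS replicate 2 these medians were -0.64, -0.58 and -0.08, and for replicate 1 they were 0.18, 0.12 and -0.09.

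Across transcripts, Spearman's rho between length and this difference was 0.683 in NMDA + PBS replicate 3, 0.520 in replicate 2 and 0.158 in replicate 1 over the 20 member transcripts. Over all 2434 it was 0.439, 0.316 and -0.119. The NMDA + SCF libraries also differed from their own mean with length, with a rho over all 2434 of 0.241, 0.163 and -0.405, and of 0.120, 0.0887 and 0.0030 over the 20 member transcripts. These transcripts share their libraries and are not independent replicates. Several of the shortest member transcripts lay further down than their length class in NMDA + PBS replicate 3, with differences of -4.31 for Cox8b, -3.72 for Ndufa1, -3.36 for Ndufa2 and -2.90 for Cox8a, while Uqcrb, also under 600 bases, lay at -1.51. Of the 10 transcripts up to 1000 bases, 9 lay below the median of their class in replicate 3 and 8 in replicate 2. Longer transcripts below their class in replicate 3 included Uqcrc1 (1653 bases) at -4.01, Ndufb5 (1079 bases) at -2.22 and Sdhc (3171 bases) at -1.49. Their class medians were -0.71, -0.95 and -0.30. Sdhd and Ndufaf3 also lay below theirs, while Ndufc1, Uqcrfs1, Ndufs4, Uqcrc2 and Atp5b lay above. Whether RNA quality, fragment size or the transcript list moved these values was not tested, and the list cannot be told apart from the NMDA + PBS replicates that carried it.

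**Figure D3:**
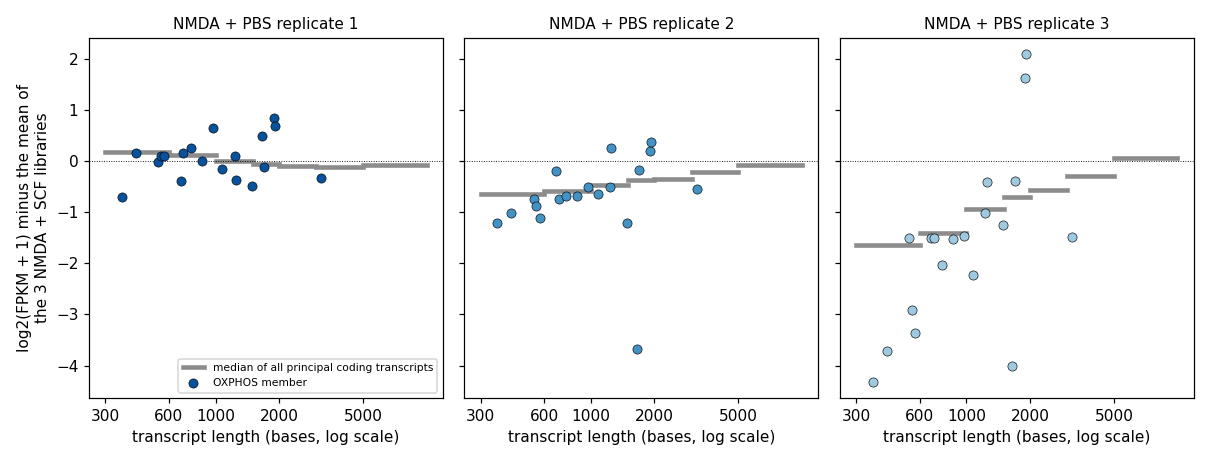
Difference of each NMDA + PBS library from the mean of the 3 NMDA + SCF libraries, in log2(FPKM + 1), against transcript length in bases (log axis). Points are 19 principal member transcripts (Uqcrfs1 is left out), and grey bars are the medians of all principal coding transcripts by length class. In replicate 3 the grey bars rise from -1.64 for transcripts up to 600 bases to 0.06 over 5000 bases, and in replicate 1 they stay between -0.11 and 0.18.

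Summed over genes, complex I gave 3265, 1901 and 896 FPKM in the NMDA + PBS libraries and 2956, 3072 and 3226 FPKM in the NMDA + SCF libraries. Complex IV gave 2981, 1642 and 490 FPKM against 2775, 2786 and 3080 FPKM, of which Cox8a made up 89.4% on average. For both complexes the spread was in the NMDA + PBS group, with means of 2020.5 ± 1189 and 1704 ± 1247 FPKM (SD, n = 3), against 3085 ± 136 and 2880 ± 173 FPKM in NMDA + SCF. The ratio of the NMDA + SCF mean to the NMDA + PBS mean was 1.53 for complex I and 1.69 for complex IV, and the ratios to NMDA + PBS replicate 1 alone were 0.945 and 0.966.

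Complex II gave 324, 230 and 175 FPKM against 305, 310 and 316 FPKM, of which Sdhd made up 83.7%, and the assembly factors of complex I gave 36.1, 23.5 and 19.3 FPKM against 31.4, 41.2 and 44.4 FPKM. Complex III gave 353, 501 and 351 FPKM against 368, 339 and 451 FPKM, and complex V gave 453, 467 and 799 FPKM against 404, 379 and 518 FPKM. The sums of complexes III and V did not show the order of complexes I, II and IV. Uqcrb and Atp5b, their highest members, made up 51.6 and 54.6% of the sums. Uqcrb itself did show that order. In complex III, Uqcrfs1 supplied 260 and 186 FPKM of the sums of NMDA + PBS replicates 2 and 3. It supplied at most 1.27 FPKM in any library with list A. The spread between the NMDA + PBS libraries was wider in the 88 protein-coding transcripts, which summed to 6682, 3842 and 2029 FPKM in the NMDA + PBS libraries and to 5907, 6032 and 6654 FPKM in the NMDA + SCF libraries. The 119 other transcripts of the members summed to 732, 924 and 702 FPKM against 935, 899 and 983 FPKM.

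**Figure D4:**
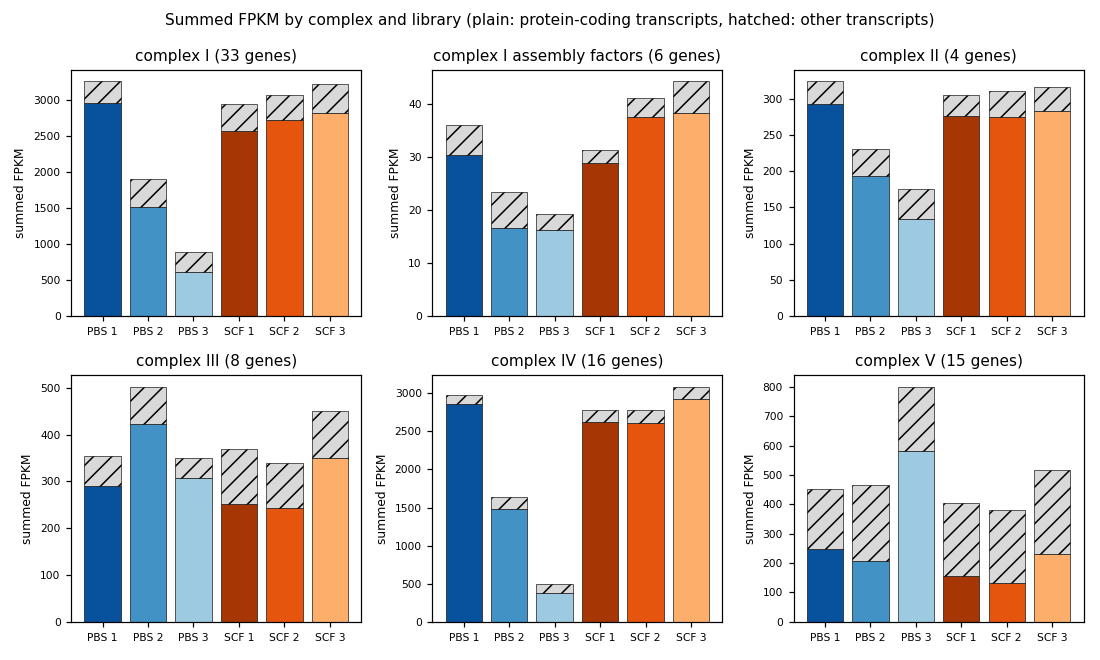
Summed FPKM (y axis, a scale for each panel) of the members of each complex in NMDA + PBS replicates 1 to 3 and NMDA + SCF replicates 1 to 3. Plain bars are protein-coding transcripts and hatched bars are other transcripts. Complex IV stands at 2981 FPKM in NMDA + PBS replicate 1 and at 490 FPKM in replicate 3, while complex V is highest in replicate 3 at 799 FPKM.

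In complex I, Ndufs4, an accessory subunit needed for a stable complex, stood at 25.5, 22.2 and 17.6 FPKM in the NMDA + PBS libraries and at 35.9, 26.7 and 47.2 FPKM in the NMDA + SCF libraries, without overlap (log2 fold change 0.70, SE 0.25, adjusted p = 0.536). Its unadjusted p was 0.0267.

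Ndufs1, the largest subunit of the complex and an iron-sulfur protein of its NADH-oxidizing arm, stood at 9.11, 11.7 and 13.8 FPKM against 10.5, 10.5 and 8.42 FPKM, and its log2 fold change was -0.21 (SE 0.22, adjusted p = 0.75). Ndufs3 lay between 47.9 and 66.9 FPKM in all 6 libraries, Ndufs7 between 12.6 and 16.6 FPKM, Ndufv1 between 8.97 and 25.9 FPKM and Ndufv2 between 12.7 and 27.7 FPKM, each with overlapping groups. These subunits carry the flavin or iron-sulfur clusters of the electron path, apart from Ndufs3. Coding transcripts made up 7.30% of the sum of Ndufs1, 0.424% of Ndufs3 and 0% of Ndufv1, against 61.7% of Ndufs7 and 100% of Ndufv2. Ndufa11, a membrane-arm subunit, was the one complex I member lower at an unadjusted p of at most 0.05, at 2.43, 5.29 and 2.88 FPKM against 1.10, 0.864 and 2.17 FPKM, which came from 5, 11 and 7 against 2, 2 and 4 counted fragments (log2 fold change -0.92, SE 0.38, adjusted p = 0.536). Ndufa9 was the lowest member of the complex, with at most 1 fragment in any library.

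Among the assembly factors, Ndufaf3 had the smallest p of all members. It stood at 16.4, 9.47 and 9.24 FPKM in the NMDA + PBS libraries and at 23.0, 25.3 and 21.8 FPKM in the NMDA + SCF libraries, without overlap (log2 fold change 0.98, SE 0.25, adjusted p = 0.536). Both lower NMDA + PBS libraries were those with list B. Ndufaf4, which acts with Ndufaf3 early in assembly, stood at 5.76, 5.36 and 2.65 FPKM against 4.75, 5.44 and 6.14 FPKM (log2 fold change 0.25, SE 0.31, adjusted p = 0.777). Ndufaf5 was the lowest assembly factor, with at most 3 fragments in any library.

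In complex II, Sdhc, the second membrane anchor, stood at 10.5, 8.80 and 4.12 FPKM against 13.7, 11.7 and 14.9 FPKM, without overlap (log2 fold change 0.79, SE 0.33, adjusted p = 0.536). The listed transcripts of Sdha that all files share lay between 24.7 and 37.7 FPKM, and Sdhb, the iron-sulfur subunit and the lowest of the 4, between 3.68 and 7.57 FPKM. Both had overlapping groups, and coding transcripts made up 0% of this sum for Sdha and 12.5% for Sdhb.

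In complex III, Uqcrc1, a core subunit of the matrix side, stood at 59.1, 49.1 and 15.8 FPKM against 81.1, 84.8 and 94.8 FPKM, without overlap (log2 fold change 1.25, SE 0.45, adjusted p = 0.536). Its principal transcript alone followed the transcript lists, at 27.9 FPKM in NMDA + PBS replicate 1, at 0.608 and 0.272 FPKM in replicates 2 and 3 and at 13.2, 20.7 and 27.1 FPKM in the NMDA + SCF libraries. Its partner Uqcrc2 stood at 21.1, 17.2 and 36.6 FPKM against 16.6, 17.2 and 16.0 FPKM, so NMDA + PBS replicate 3 was the lowest library for Uqcrc1 and the highest for Uqcrc2 (log2 fold change -0.49, SE 0.28, adjusted p = 0.586). Uqcrh, the hinge protein, lay between 14.0 and 25.4 FPKM with overlapping groups, and coding transcripts made up 0% of its sum. Uqcr11, counted above among the members without overlap, was the lowest member, with at most 2 fragments in any library.

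In complex IV, Cox5b stood at 32.1, 26.9 and 13.7 FPKM against 36.4, 39.0 and 36.7 FPKM, without overlap (log2 fold change 0.69, SE 0.30, adjusted p = 0.536), and its highest transcript was a retained-intron transcript of 757 bases. Its core neighbours Cox4i1 and Cox5a lay between 30.2 and 43.9 FPKM and between 3.34 and 7.19 FPKM, with overlapping groups. Coding transcripts made up 0% of the sums of Cox4i1 and Cox5a. Several subunits of this complex have tissue-specific isoforms, which cannot be ranked here where their principal transcripts are not listed. Cox4i2, the lung isoform, had at most 1 fragment in any library. Cox6b2, the testis isoform, stood at 13.6, 10.2 and 3.01 FPKM against 11.8, 19.4 and 23.4 FPKM, with overlapping groups. Cox6b1 was at most 2.73 FPKM, and the highest transcript of both genes was a retained-intron transcript. Their principal transcripts were listed in all 6 files, at means of 0.0679 FPKM for Cox6b2 and 0.316 FPKM for Cox6b1. The sums therefore do not rank this pair. Cox6a2, Cox7a1 and Ndufa4 were at most 3.83, 4.91 and 5.52 FPKM, Cox7a2 lay between 4.39 and 12.1 FPKM, and Cox7b between 26.4 and 58.7 FPKM. Cox7b2, counted above with a negative log2 fold change and an unadjusted p of at most 0.05, had at most 3 fragments in any library, so no fold is given. Cox7a2l and Ndufa4l2 were at most 1.75 and 0.867 FPKM. Cox6a1 and Cox8c are not analysed here.

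In complex V, Atp5k, a small membrane subunit, stood at 6.78, 7.15 and 0.800 FPKM against 9.85, 8.68 and 14.9 FPKM, without overlap (log2 fold change 1.29, SE 0.59, adjusted p = 0.540). Atp5j2, named after its values were seen, was the one member of this complex that was lower without overlap, at 4.92, 4.07 and 6.41 FPKM against 3.56, 3.97 and 2.37 FPKM (log2 fold change -0.52, SE 0.29, adjusted p = 0.572). With all listed transcripts the log2 fold change of Atp5j2 was 1.39 instead (limma adjusted p = 0.487). That sum holds a coding transcript of list A only, which adds nothing in the libraries with list B. It stood at 12.7 FPKM in NMDA + PBS replicate 1. In the NMDA + SCF libraries it stood at 17.7, 17.5 and 21.5 FPKM. The genes of the c-ring, which encode the same mature protein, differed in level, with Atp5g1 between 1.35 and 5.98 FPKM, Atp5g2 between 16.3 and 29.0 FPKM and Atp5g3 between 36.1 and 60.3 FPKM. The highest transcript of Atp5g3 was a processed transcript, so these levels do not rank the genes. Atp5c1, the gamma subunit, was the lowest member, with at most 1 fragment in any library.

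The members were also compared with the subunits that mitochondrial DNA encodes. Of 13 such genes 11 had values, and 9 of the 11 had a negative log2 fold change. No overlap between the groups was found for 4 of the 11, all lower in NMDA + SCF, against 6.45% of all genes tested. The complex I subunit mt-Nd1 stood at 7138, 7264 and 7097 FPKM in the NMDA + PBS libraries and at 2433, 2150 and 2966 FPKM in the NMDA + SCF libraries (log2 fold change -1.52, SE 0.32, adjusted p = 0.536). The catalytic complex IV subunit mt-Co1 stood at 12608, 13328 and 16639 FPKM against 5748, 6048 and 6290 FPKM (log2 fold change -1.23, SE 0.39, adjusted p = 0.536). In these 2 genes NMDA + PBS replicate 1 stood with replicates 2 and 3 and not with the NMDA + SCF libraries of its own transcript list. The complex III subunit mt-Cytb stood at 29743, 11954 and 14145 FPKM against 13729, 13876 and 14483 FPKM, so there NMDA + PBS replicate 1 stood above the other 5 libraries.

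The mitochondrially encoded sum was 90178, 54301 and 59464 FPKM in the NMDA + PBS libraries and 41705, 40122 and 44539 FPKM in the NMDA + SCF libraries. The sum of the 84 nuclear members was 8.22, 8.78 and 4.59% of it in the NMDA + PBS libraries and 16.4, 17.3 and 17.1% in the NMDA + SCF libraries, 7.20 ± 2.27% against 16.9 ± 0.469% (SD, n = 3). The groups did not overlap in this share. In NMDA + PBS replicate 1 the nuclear sum was 7414 FPKM, inside the range of the NMDA + SCF libraries of 6841 to 7637 FPKM, and its mitochondrially encoded sum was the highest. In replicates 2 and 3 the nuclear sums were 4766 and 2731 FPKM. An FPKM is relative to all counted fragments of a library, and the low nuclear sums of replicates 2 and 3 went with transcript length as described above. The part of length in this share was not tested.

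**Figure D5:**
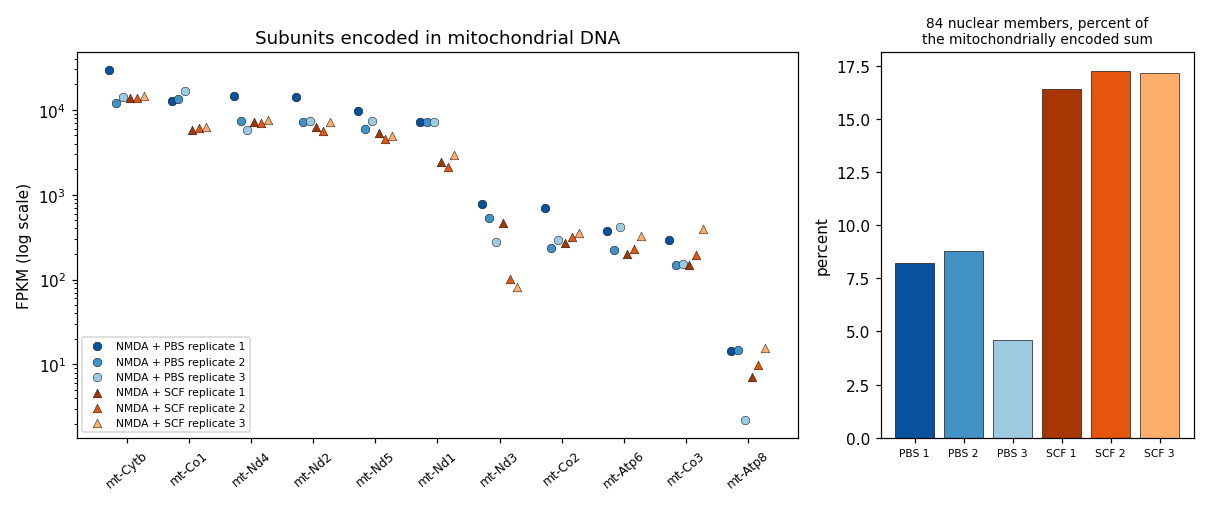
Left, FPKM (log axis) of the 11 measured subunits encoded in mitochondrial DNA in each library. Right, the sum of the 84 nuclear members as a percent of the mitochondrially encoded sum, which lies between 4.59 and 8.78% in the NMDA + PBS libraries and between 16.4 and 17.3% in the NMDA + SCF libraries.

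The wider pathway showed no more calls. Of 38 other assembly factors 30 were tested, and 2 had a positive and 0 a negative log2 fold change with an unadjusted p of at most 0.05 (6.67%, against 9.22% of all genes). Coa3, a complex IV factor, stood at 138, 69.5 and 64.6 FPKM against 129, 147 and 157 FPKM, and Ttc19, a complex III factor, at 21.1, 0 and 2.38 FPKM against 22.9, 24.3 and 25.6 FPKM. In both genes NMDA + PBS replicate 1 stood near the NMDA + SCF libraries. Of 17 electron carriers and regulators of mitochondrial biogenesis 16 were tested, and 2 had such a p (12.5%), Etfb, a subunit of the electron transfer flavoprotein, with a positive log2 fold change and Tfb2m, a mitochondrial transcription factor, with a negative one. The transcriptional coactivator Ppargc1a lay between 17.0 and 24.6 FPKM and Tfam, which packages and transcribes mitochondrial DNA, between 14.9 and 23.8 FPKM, with overlapping groups. Of the factors whose motifs were searched, Nrf1 lay between 1.09 and 4.77 FPKM, with overlapping groups. Yy1 stood at 74.6, 70.2 and 66.4 FPKM against 85.4, 90.1 and 87.6 FPKM (limma adjusted p = 0.545). It was the 1 gene of the 16 without overlap, against 14.1% of all genes tested. Gabpa, of GABP, stood at 0.118, 27.6 and 29.8 FPKM against 0.410, 0.346 and 0.638 FPKM. It was thus high in the list B libraries only. Of the 12 citrate cycle enzymes none passed that threshold in limma, and their median log2 fold change was -0.05.

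The tissue was checked by cell type markers. The summed level of 8 rod markers, all with values, lay between 2761 and 3779 FPKM in the 6 libraries. The 4 of 5 bipolar markers with values, without Grm6, summed to between 133 and 181 FPKM and the 4 amacrine markers to between 34.2 and 44.4 FPKM. Markers of some other cell types differed more between the libraries. The 3 of 5 microglia markers with values, without Aif1 and P2ry12, summed to 140, 290 and 35.4 FPKM in the NMDA + PBS libraries. In the NMDA + SCF libraries they summed to 219, 298 and 301 FPKM. The 3 of 5 blood markers with values, without Hba-a1 and Hba-a2, summed to 49.8, 38.6 and 26.4 FPKM against 47.5, 111 and 235 FPKM. The 4 markers of the pigment epithelium, all with values, summed to 784, 361 and 181 FPKM in the NMDA + PBS libraries and to between 699 and 924 FPKM in NMDA + SCF. The 3 of 4 Müller glia markers with values summed to 3968, 2015 and 2247 FPKM against 3068 to 3255 FPKM, and Aqp4 was not among them. The 5 of 6 lens markers with values, without Bfsp1, summed to 3.06, 13.4 and 25.6 FPKM against 613, 31.7 and 948 FPKM. The 5 of 6 ganglion cell markers with values, without Pou4f1, summed to 421, 206 and 191 FPKM against 277, 238 and 285 FPKM. The 2 of 3 cornea markers with values, without Aldh3a1, summed to 11.7, 15.1 and 43.5 FPKM against 2.96, 5.37 and 11.98 FPKM. The part of these cell types in the levels of the members was not tested.

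Leaving out 1 library moved the counts. Without NMDA + PBS replicate 1, limma called 191 genes and 1 member, Uqcrfs1, and 25 members had an unadjusted p of at most 0.05, against 17.4% of all genes, but then transcript list and group coincided and cannot be told apart. Without NMDA + PBS replicate 2 this count was 12, against 7.99% of all genes, and without replicate 3 it was 3, against 5.46%. It was 5, 4 and 5 without NMDA + SCF replicate 1, 2 or 3, against 5.50%, 5.14% and 4.61% of all genes.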

How the data were processed

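Retinal mRNA was enriched with oligo (dT) beads and sequenced on an Illumina instrument. The authors deposited 1 table of FPKM values per library, by transcript, and a table of clean read counts, which lay between 44925938 and 48783182 per library. The aligner and the counter are not given in the sources used here. The submitters' processing notes name mm9, but 98.2% of the 63313 Ensembl transcripts found in GENCODE M21 had its GRCm38 positions. FPKM times length gave whole fragments within 0.05 for 98.4 to 98.5% of values, and implied 3404332 to 4440575 counted fragments per library. These fragments limit the precision of low values, and whether strand was used in counting is not given. Many members have processed pseudogenes, and reads shared with them cannot be told apart here.

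Gene values were sums of FPKM over the 46933 Ensembl transcripts that both lists hold, without 7529 of list A and 8966 of list B alone. Transcripts of a merged assembly, 8.85 to 11.4% of the summed FPKM, were left out. The 25202 genes above 0 in at least 1 library were fitted on log2(FPKM + 1) with limma 3.58.1 (R 4.3.3), with a variance trend, condition as the only term and Benjamini-Hochberg adjustment over all genes, and the code was tested on simulated data. Fold changes on this scale understate those of low genes. Genes were called at a 2-fold difference with an adjusted p no higher than 0.001. Alternatives were a pseudocount of 0.1, a mean of at least 1 FPKM, other scalings, all listed transcripts, the list as a term, voom (with edgeR 4.0.16) on the recovered fragments, a replicate block, removal of mitochondrially encoded genes, centring by length and leaving out each library.

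Named genes were the catalytic and redox core subunits, isoform pairs, the highest and lowest member of each complex, the 5 members with the smallest p in each direction, members without overlap between groups (up to 10 by p), Ndufs1, Ndufaf4 and members with no shared transcript. Other members are said to be named after their values were seen. A result of this rule that is withheld is not reported here. The members and the lists were chosen with earlier results of these data known.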

Additional observations from a re-analysis of the deposited data

How the results depend on the processing

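No gene was called with all 6 libraries under the alternatives for which calls were counted. The term for the transcript list was left out of this count. With that term, the comparison rests on NMDA + PBS replicate 1, which shares a list with the NMDA + SCF libraries. Only effect sizes are therefore given for it. The limma fit gave 4332 genes at an unadjusted p of at most 0.05 without NMDA + PBS replicate 1 and 1347 without replicate 3. Leaving out 1 library at a time gave 0 to 191 genes called, 0 to 1 members called and 3 to 25 members at an unadjusted p of at most 0.05. The medians ranged from 0.14 to 0.27 for the members, -0.19 to 0.50 for the assembly factors, 0.19 to 0.28 for complex III and -0.14 to 0.14 for complex IV. Without NMDA + PBS replicate 1, Uqcrfs1 was at -7.30, and without replicate 3 Ndufb4 was at -0.065 and Ndufaf4 at -0.031, within ranges over the libraries left out of -0.065 to 0.92 and -0.031 to 0.41.

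With a term for the transcript list, the log2 fold change was -0.15 for Ndufa1, -0.11 for Ndufa2, -0.25 for Ndufb3, -0.58 for Ndufb4, -0.16 for Ndufb9, 0.087 for Ndufs1, -0.075 for Ndufaf4, -0.091 for Sdhd and -0.098 for Cox8a, and the medians were 0.034 for the members, -0.37 for the assembly factors and 0.0084 for complex II. All of these equal the values against NMDA + PBS replicate 1 alone. They rest on that 1 NMDA + PBS library and are no separate comparison. With all listed transcripts, the medians were -0.33 for the assembly factors and 1.16 for complex II, their summed log2 ratios 0.069 and 0.83, and Atp5j2 was at 1.39. A transcript missing from a list adds nothing there in the libraries with that list. The principal transcript of Sdha, for example, adds to the list A libraries alone. These values thus hold the difference between the lists and are no separate estimate of the group difference. The median of complex III was 0.045 at a mean of at least 1 FPKM and 0.043 without mitochondrially encoded genes, and that of complex IV was -0.065 with upper quartile scaling, -0.074 with voom and -0.081 without mitochondrially encoded genes. Centred by length class (chosen after seeing the data), the medians were -0.018 for the members, 0.0051 for complex I, 0.010 for II, -0.023 for III, -0.11 for IV and -0.27 for V, and 27.7% of all genes had a positive fold change, against 49.1%. The class medians were taken from these same libraries, so the centred values are no test of length. The cause was not tested by any of these settings.

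Same-numbered libraries had correlations of -0.0503, -0.0459 and -0.0774 between their deviations from the group means, and differently numbered ones of 0.0132 to 0.0521. Deviations from a mean of 3 libraries are tied to each other, so these values cannot decide whether the replicate numbers pair the libraries. The main fit treated the libraries as unpaired. With the replicate number as a block, 5 members had an unadjusted p of at most 0.05, against 7.36% of all genes, no gene was called and no other call changed.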
